A study of Mus musculus with 2 samples.

Results

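Sox9-detected biliary cells were compared with Sox9-zero biliary cells inside each of 2 single-cell libraries from mouse liver, and the differences were then set side by side between the libraries. Cells were chosen by their Sox9 UMIs (unique molecular identifiers, each standing for 1 counted transcript). Sox9-detected cells hold 2 or more Sox9 UMIs and Sox9-zero cells hold none. Of 6362 deposited cells, 585 were Sox9-detected, 240 in the library labelled Sox9con and 345 in the library labelled Sox9cKO. After pairing with Sox9-zero cells of the same barcoding well and depth, 218 and 300 Sox9-detected cells entered the comparison, against equal numbers of Sox9-zero cells.

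The study measured transcripts in liver cells labelled biliary epithelial cells, in 1 library of genotype Sox9cKO and 1 of genotype Sox9con. Fixed cells were barcoded in rounds of splitting and pooling, with both random hexamer and oligo(dT) priming. The labels give neither the deleted part of Sox9, nor the Cre line and the cells it acts in, nor the age or number of the animals, and they name no treatment. Counts are per gene and do not say which exon a UMI came from, so Sox9 UMIs in the Sox9cKO library do not check the deletion. With 1 library per genotype there is no test, and all intervals are 95% intervals for counting error. UMIs of the same cell are not independent, so the true uncertainty is wider.

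SOX9 is a transcription factor of the SOX family, which binds DNA through a high-mobility-group domain. In the liver it marks the epithelium of bile ducts, where it takes part in the formation of the ducts during development. In cartilage it acts with SOX5 and SOX6 and switches on collagen genes. ANKRD1 is an ankyrin-repeat protein whose gene is a target of the co-activator YAP and its TEAD partners. SPP1 (osteopontin) is a secreted phosphoprotein of bile duct epithelium.

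The promoters of both genes are shown because Ankrd1 had the most UMIs among the 12 genes highest in both libraries and Spp1 was the marker of duct epithelium with the most UMIs. Each run covers 250 bases before and 50 bases after a gene start, from RefSeq on build GRCm38.p6, 5′ to 3′ on the gene's own strand. Ankrd1 lies at chr19:36119795-36120094 on the minus strand. Capitals mark 2 copies of GGAATG, the core letters of the TEAD motif, which begin 210 and 123 bases before the start. Spp1 lies at chr5:104434861-104435160 on the plus strand, the first listed of its start sites. Capitals mark CTTTGT, which is the SOX core ACAAAG on the other strand and begins 168 bases before the start.
Ankrd1: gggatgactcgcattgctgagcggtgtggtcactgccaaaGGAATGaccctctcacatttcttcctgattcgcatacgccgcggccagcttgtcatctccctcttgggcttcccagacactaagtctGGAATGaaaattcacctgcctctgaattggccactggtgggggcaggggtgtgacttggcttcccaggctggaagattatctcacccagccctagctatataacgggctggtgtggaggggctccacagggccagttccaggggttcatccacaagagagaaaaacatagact
Spp1: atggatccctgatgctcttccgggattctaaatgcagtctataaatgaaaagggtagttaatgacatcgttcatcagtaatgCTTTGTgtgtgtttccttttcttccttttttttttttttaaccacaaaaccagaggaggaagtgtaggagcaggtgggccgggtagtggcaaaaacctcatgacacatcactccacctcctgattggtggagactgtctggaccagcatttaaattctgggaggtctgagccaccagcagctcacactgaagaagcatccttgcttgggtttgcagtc
Both strands were searched for ACAATG and ACAAAG, the core letters bound by SOX factors (ACAAAG is also in the TCF and LEF motif), and for GGAATG. A match is a description of letters and not a binding site.

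Sox9-detected cells made up 21.9% of the 1095 kept Sox9con cells (interval 19.5 to 24.5%, Clopper-Pearson) and 19.1% of the 1805 kept Sox9cKO cells (17.3 to 21.0%). Kept cells had at least 4000 UMIs, at most 15% mitochondrial UMIs and under 5 UMIs over the endothelial genes Ptprb, Stab2, Kdr and Flt1. The median was 5197 UMIs per kept Sox9con cell and 6115 per kept Sox9cKO cell. Thinned to 4000 UMIs in every cell, the shares with 2 or more Sox9 UMIs were 15.2% and 9.53%, beside 0 of 17 and 2 of 28 (7.14%, 0.877 to 23.5%) of the cells removed for endothelial UMIs. Another 235 Sox9con and 503 Sox9cKO cells held 1 Sox9 UMI and stood in neither group.

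Most Sox9-detected cells were near the threshold. In Sox9con, 46.3% held exactly 2 Sox9 UMIs and 19.2% held 5 or more, with a highest cell of 15. In Sox9cKO, 56.8% held exactly 2 and 9.57% held 5 or more, with a highest cell of 11. The values just outside the rule are the cells with 1 UMI, whose median depths of 5312 and 6159 UMIs lay between those of Sox9-detected cells (5657 and 7039) and Sox9-zero cells (5025.5 and 5811). A Sox9-zero cell is therefore one in which no Sox9 UMI was found at its depth, not one shown to lack the transcript. As a background level, 2 of 17 Sox9con cells and 7 of 28 Sox9cKO cells removed for endothelial UMIs held at least 1 Sox9 UMI (11.8% and 25.0%), and 0 and 2 of them held 2 or more, at median depths of 5660 and 5388.5 UMIs. A count of 0 of 17 allows a share of up to 19.5% (exact upper bound).

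Pairing made the arms alike in depth. The median was 5535.5 UMIs in the Sox9-detected and 5485 in the Sox9-zero arm of Sox9con, and 6702.5 and 6758.5 in Sox9cKO. Median mitochondrial shares were 5.55% and 6.41% in Sox9con and 6.11% and 5.94% in Sox9cKO. The libraries shared no cell barcode. Each barcoding well holds part of 1 library, and the labels do not say what was loaded into it. Wells are therefore not taken as biological replicates, and their spread cannot be called technical or biological. Well D9 stood apart in Sox9con, with 32.4% of its kept cells Sox9-detected against 9.57 to 15.8% in the other wells, and it gave 140 of the 218 pairs (64.2%). Sox9cKO wells ranged from 13.1% in A11 to 22.3% in A12.

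Both arms carried the markers of biliary epithelium. Epcam, an adhesion molecule of simple epithelia, had a UMI in 97.2% of Sox9-detected and 96.3% of Sox9-zero cells of Sox9con and in 94.7% and 97.3% of those of Sox9cKO. Its log2 ratio of Sox9-detected over Sox9-zero cells was 0.00 in Sox9con and -0.17 in Sox9cKO. Ratios are of summed UMIs scaled to the arm's total over all genes but Sox9 (CPM), with 0.5 counts added. Of the cells removed for endothelial UMIs, which should lack Epcam, 9 of 17 in Sox9con and 14 of 28 in Sox9cKO held an Epcam UMI, at the depths given above. Across the 16 tested genes of biliary identity the median log2 ratio was -0.00 in Sox9con and 0.04 in Sox9cKO, beside 0.03 and -0.00 over all 4402 genes tested.

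Across those 4402 genes, each with at least 100 UMIs over both arms in each library, the differences were modest and partly shared. At least 1.5-fold higher in Sox9-detected cells were 140 genes in Sox9con (3.18% of those tested) and 47 in Sox9cKO (1.07%). At least 1.5-fold lower were 183 (4.16%) and 74 (1.68%). The same 15 genes were higher in both libraries (0.341% of genes tested), which is 10.7% of the Sox9con list and 31.9% of the Sox9cKO list. The same 27 genes were lower in both (0.613%), or 14.8% and 36.5% of those lists. Of the 140 Sox9con genes, 104 (74.3%) also had a ratio above 0 in Sox9cKO, where 48.8% of all tested genes did. Of the 183 lower Sox9con genes, 144 (78.7%) were below 0 in Sox9cKO, where 51.2% of all tested genes were. Past 1.5-fold in opposite directions were 5 genes.

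Across genes, the log2 ratios of the libraries had Pearson's r of 0.35 and Spearman's rho of 0.29, over 4402 genes that are not independent of each other. Their spread was wider in Sox9con (SD 0.33) than in Sox9cKO (SD 0.25), whose arms held 2101348 and 2097222 UMIs against 1297051 and 1279984. The named genes below are the 12 highest and 12 lowest in both libraries, ranked by the smaller of the ratios, so their own size in these pairs is a description.

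**Figure D1:**
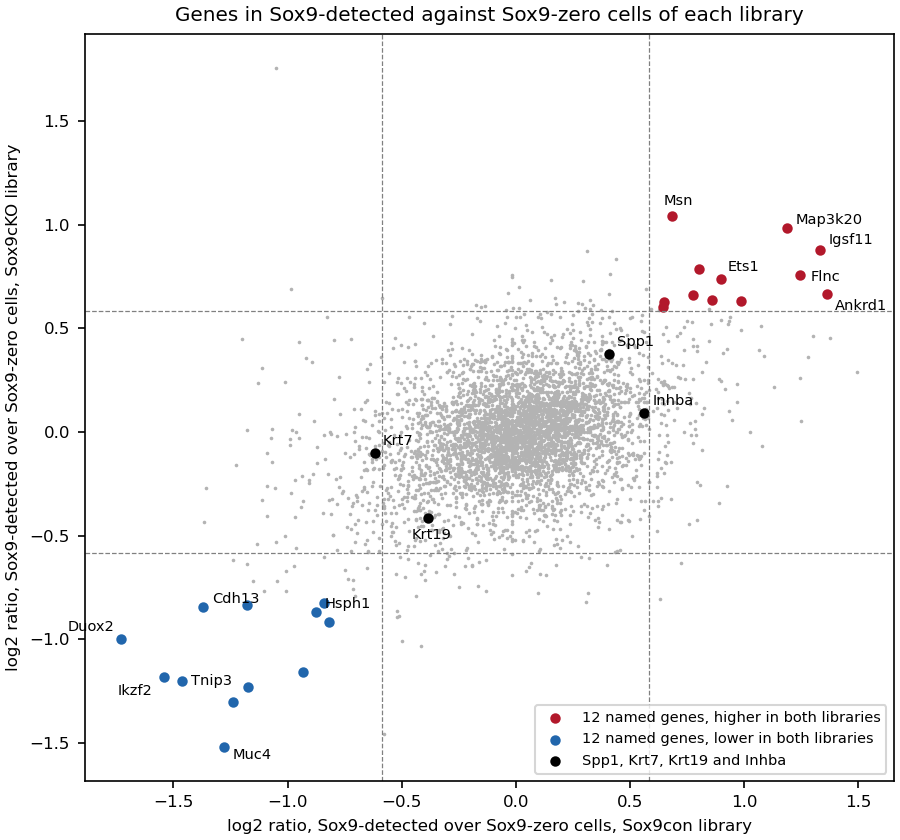
Each point is 1 of 4402 tested genes, with its log2 ratio of Sox9-detected over Sox9-zero cells in Sox9con (horizontal) and in Sox9cKO (vertical), and dashed lines mark 1.5-fold. Red and blue points are the 12 named genes that were highest and lowest in both libraries, and black points are Spp1, Krt7, Krt19 and Inhba, which lie nearer to 0.

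Ankrd1 was the most counted of the higher genes. In Sox9con it had 1749 UMIs in Sox9-detected and 671 in Sox9-zero cells, or 1349 and 524 CPM, a log2 ratio of 1.36 (1.23 to 1.49). In Sox9cKO it had 2128 and 1338 UMIs, or 1013 and 638 CPM, a log2 ratio of 0.67 (0.57 to 0.77). The Sox9-detected arm was the higher one in both libraries, and the difference between the libraries was not tested. At least 1 Ankrd1 UMI was found in 52.3% of Sox9-detected and 42.7% of Sox9-zero cells of Sox9con, and in 56.0% and 47.3% of Sox9cKO. In the cells removed for endothelial UMIs it was found in 6 of 17 and 6 of 28. No single cell set these ratios: without the highest cell of each arm they were 1.45 and 0.68. Among wells with at least 20 pairs, Ankrd1 ratios ran from 1.0 in D9 to 2.24 in D10 in Sox9con and from 0.43 in B1 to 1.62 in B3 in Sox9cKO, ranges that overlap. Well D11, with 8 pairs, held 2 Ankrd1 UMIs against 38 and went the other way.

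The other higher genes are given by role, in groups made after their values were seen. Igsf11, an immunoglobulin-family adhesion protein, had 164 UMIs in Sox9-detected and 64 in Sox9-zero cells of Sox9con (log2 ratio 1.33) and 74 and 40 of Sox9cKO (0.88). Flnc, which encodes the actin crosslinker filamin C, had 80 and 33 UMIs (1.25) and 229 and 135 (0.76). In Sox9cKO, 1 Sox9-detected cell held 45 of the 229 Flnc UMIs. Without the highest cell of each arm the Sox9cKO ratio of Flnc was 0.57, under the 0.58 of 1.5-fold. It was 0.13 with exactly 2 Sox9 UMIs and 0.57 with 3 or more. Msn encodes moesin, a linker of actin to the membrane, and had 72 and 44 UMIs (0.69) and 213 and 103 (1.04). The small GTPase gene Rnd1, which acts on actin, had ratios of 0.65 and 0.63. These 4 genes were higher in Sox9-detected cells of each well with at least 20 pairs, except Igsf11 in B2, with 12 UMIs in each arm. For Flnc the A12 counts were close, at 56 against 54 UMIs, while B2 had 101 against 30.

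The rest of the higher set had roles in signalling, in gene regulation or elsewhere. Map3k20, a kinase of the ribotoxic stress response, had 70 UMIs in Sox9-detected and 30 in Sox9-zero cells of Sox9con (1.19) and 133 and 67 of Sox9cKO (0.98). The transcription factor gene Ets1 had 299 and 158 UMIs (0.90) and 449 and 269 (0.74). Heg1, a membrane protein of cell junctions, had 140 and 79 UMIs (0.80) and 209 and 121 (0.78). Eda, a ligand of the TNF family, had ratios of 0.99 and 0.63, and the apolipoprotein gene Apoc1 had 0.86 and 0.64. Dis3, the catalytic ribonuclease of the RNA exosome, had 0.64 and 0.60, and the transcript 1600020E01Rik 0.78 and 0.66. The other genes past 1.5-fold in both libraries were Itih5 (0.85 and 0.59), Tenm3 (0.59 and 0.59) and Me2 (0.63 and 0.59).

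Heg1, Ets1 and Msn stood higher in the 128 Sox9con and 89 Sox9cKO cells with 5 or more endothelial UMIs than in either biliary arm, at 411 and 504 CPM for Heg1, 525 and 722 for Ets1 and 644 and 615 for Msn. The 12 endothelial markers summed to 48.6 CPM in Sox9-detected and 42.2 in Sox9-zero cells of Sox9con and to 33.3 and 31.5 in Sox9cKO. None of the 12 reached the minimum for testing, and Clec4g was at 0 in both arms of Sox9con. In cells with under 2 endothelial UMIs the ratios were 0.78 and 0.81 for Heg1, 1.17 and 0.64 for Ets1 and 0.80 and 0.47 for Msn. Flnc, which did not stand higher in the endothelial cells, was at 1.44 and 0.24 in that setting. Map3k20 had a UMI in 5 of 17 and 9 of 28 deep endothelial cells (29.4% and 32.1%), more than in the Sox9-detected arms (19.3% and 26.0%). Dis3 had one in 6 of 17 and 8 of 28 (35.3% and 28.6%), beside 28.0% and 35.3% of the Sox9-detected arms. In cells with 5 or more endothelial UMIs, Map3k20 was at 48.2 and 59.9 CPM and Dis3 at 25.4 and 28.4. For Map3k20 the Sox9-detected and Sox9-zero arms were at 54.0 and 23.4 CPM in Sox9con and 63.3 and 31.9 in Sox9cKO. For Dis3 they were at 62.5 and 39.8 CPM and at 62.4 and 41.0. The transcript 1600020E01Rik was at 53.2 and 69.4 CPM in cells with 5 or more endothelial UMIs. These values lay between its Sox9-detected and Sox9-zero arms (83.3 and 48.4 in Sox9con, 76.2 and 48.2 in Sox9cKO). The part of endothelial RNA in the Map3k20, Dis3 and 1600020E01Rik ratios was not tested.

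**Figure D2:**
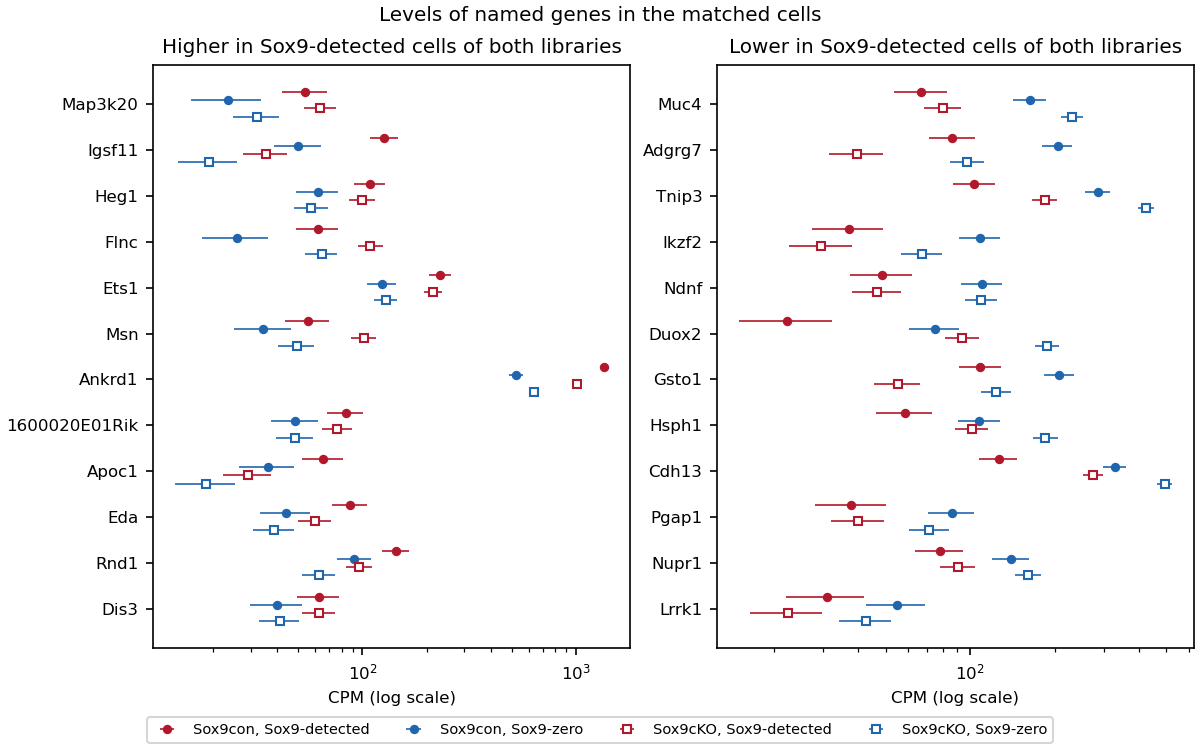
Points give the CPM (log scale) of the 12 higher genes (left) and 12 lower genes (right) in the matched Sox9-detected (red) and Sox9-zero (blue) cells of Sox9con (filled circles) and Sox9cKO (open squares), with 95% counting intervals. Red points lie to the right of blue ones in the left panel and to the left of them in the right panel, and Ankrd1 lies apart at 524 to 1349 CPM.

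Muc4, which encodes a membrane mucin of epithelial surfaces, was the lowest gene by this ranking. It had 87 UMIs in Sox9-detected and 209 in Sox9-zero cells of Sox9con, or 67.1 and 163 CPM, a log2 ratio of -1.28 (-1.66 to -0.92). In Sox9cKO it had 168 and 482 UMIs, or 80.0 and 230 CPM, a ratio of -1.52 (-1.78 to -1.27). With every cell thinned to 4000 UMIs before the arms were set, the Sox9cKO ratio was 0.044, so its direction there was not kept. A Muc4 UMI was found in 10.1% of Sox9-detected and 19.3% of Sox9-zero cells of Sox9con and in 12% and 23.0% of Sox9cKO, so the lower sums went with fewer cells holding a UMI. In the cells removed for endothelial UMIs it was found in 0 of 17 and 5 of 28 (17.9%), so the share in the Sox9-detected arm of Sox9cKO was no higher than this background. Duox2, a dual oxidase that makes hydrogen peroxide at epithelial surfaces, had 29 and 96 UMIs (-1.73) and 197 and 394 (-1.0). Of the cells removed for endothelial UMIs, 3 of 17 in Sox9con (17.6%) held a Duox2 UMI, beside 6.42% and 15.1% of the arms. In Sox9cKO it was 4 of 28 (14.3%), beside 17.7% and 26.3%. Msln (mesothelin) had ratios of -0.97 and -0.65, and Fcgbp, a protein of mucus, -1.01 and -0.67. Muc4 was lower in Sox9-detected cells of all 8 wells with at least 20 pairs, from -3.59 in B1 to -0.09 in B3, and Duox2 in 7 of 8.

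The remaining lower genes were of mixed function. Tnip3, which encodes a partner of the NF-kappaB inhibitor A20, had 134 UMIs in Sox9-detected and 365 in Sox9-zero cells of Sox9con (-1.46) and 387 and 890 of Sox9cKO (-1.20). It was lower in all 8 wells with at least 20 pairs. Adgrg7, an adhesion-type G protein-coupled receptor, had 112 and 262 UMIs (-1.24) and 83 and 205 (-1.30). Cdh13, a cadherin held by a lipid anchor, had 164 and 419 UMIs (-1.37) and 576 and 1033 (-0.84). Cdh13 also stood higher in cells with 5 or more endothelial UMIs (801 and 735 CPM) than in either biliary arm, and in cells with under 2 endothelial UMIs its ratios were -1.17 and -0.55. Ikzf2, the transcription factor Helios, had ratios of -1.54 and -1.18, and the secreted factor Ndnf -1.17 and -1.23. The actin regulator Eps8 (-1.15 and -0.72) and its relative Eps8l3 (-1.10 and -0.77) were also at least 1.5-fold lower in both.

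The lower set also held genes known from stress responses. The heat shock protein gene Hsph1 had 76 and 138 UMIs in Sox9con and 213 and 389 in Sox9cKO, a ratio of -0.87 in each. Its well values were the most scattered of the set, from -1.61 to 3.94 in Sox9con. The Sox9con ratio was 1.37 without well D9 and 0.71 with 3 or more Sox9 UMIs, so its direction there rests on D9 and on the threshold. Hsph1 also stood higher in cells with 5 or more endothelial UMIs (335 and 328 CPM) than in either biliary arm, and with under 2 endothelial UMIs its ratios were -0.69 and -1.10. Hspa1a, the inducible HSP70, had ratios of -1.05 and -0.72. Its near-identical copy Hspa1b had -0.80 and -0.32, and the counting may split UMIs between the copies. Nupr1, a stress-induced nuclear protein, had -0.84 and -0.83, and Gsto1, a glutathione transferase, -0.93 and -1.16. Gsto1 stood at 233 CPM in the Sox9cKO cells with 5 or more endothelial UMIs, above both arms (55.2 and 123). In Sox9con it stood at 93.8 CPM in such cells, below both arms (109 and 208). With under 2 endothelial UMIs the Gsto1 ratios were -0.94 and -0.79. The kinase gene Lrrk1 (-0.82 and -0.92) and Pgap1 (-1.18 and -0.83), which remodels lipid anchors of proteins, completed the 12. In the Sox9cKO cells with 5 or more endothelial UMIs, Lrrk1 stood at 44.1 CPM (14 UMIs), above both arms (22.4 and 42.4). In such Sox9con cells it stood at 35.5 CPM, between the arms (30.9 and 54.7). With under 2 endothelial UMIs the Lrrk1 ratios were -0.95 and -1.17.

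Other genes at least 1.5-fold lower in both libraries included Mindy1, Cotl1, Hrh1, Akr1b8, Ildr2, Tspan15, Serpinb1a, Fstl4 and Epn3. Whether counting used the strand is not stated, and some named genes share a locus with a gene on the other strand, such as Dis3 with Pibf1 and Gsto1 with Cfap43, so UMIs of those pairs cannot be told apart.

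Within wells, the direction held for most gene and well pairs. Of the values of the 12 higher genes in wells with at least 20 pairs, 35 of 36 were above 0 in Sox9con and 56 of 60 in Sox9cKO, some by little, such as Igsf11 in B2. Of those of the 12 lower genes, 34 of 36 and 57 of 60 were below 0. The median over the 12 higher genes ran from 0.50 in A12 to 1.15 in D10, and that over the lower genes from -1.48 in B1 to -0.78 in D12. In D11 the medians were 0.24 and -0.10 over 8 pairs. The wells add up to the sums the genes were chosen on, so these values describe the spread within a library and are no further support.

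**Figure D3:**
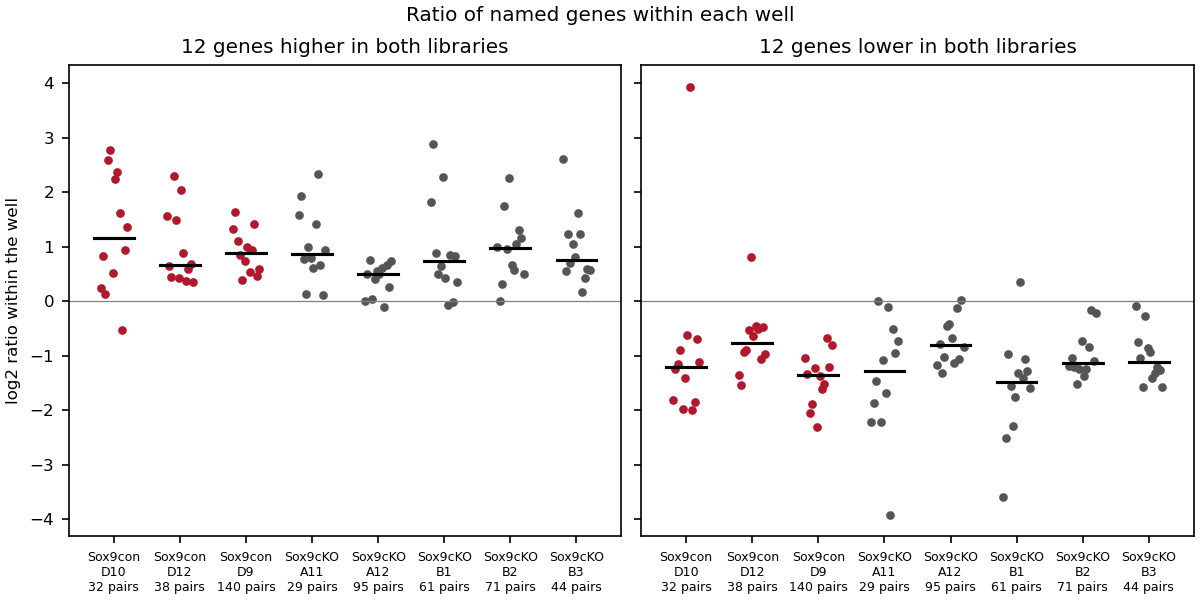
Points are the log2 ratios of the 12 higher (left) and 12 lower (right) named genes within each barcoding well with at least 20 pairs, in Sox9con (red) and Sox9cKO (grey), with black lines for medians. Medians lie between 0.50 and 1.15 for the higher and between -1.48 and -0.78 for the lower genes, and the point at 3.94 is Hsph1 in D10.

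Cells outside the pairs were then compared in the same way. Cells with exactly 1 Sox9 UMI were paired with Sox9-zero cells that had not been drawn. Over 190 such pairs of Sox9con, the 12 higher genes had a median log2 ratio of 0.57, with 10 of 12 above 0, and the 12 lower genes -0.89, with 12 of 12 below 0. Over 421 pairs of Sox9cKO the medians were 0.26, with 9 of 12 above 0, and -0.21, with 10 of 12 below 0. Among all genes tested, 50.7% and 50.6% were above 0 in the same pairs. The direction was that of the main comparison for most of these genes. An interval off 0 in that direction was found for 6 of the higher and 8 of the lower genes in Sox9con. In Sox9cKO it was found for 4 and 5. Of all 4402 tested genes, 369 in Sox9con and 304 in Sox9cKO had an interval above 0. Tested genes with an interval below 0 were not counted. The genes were chosen for large ratios in the main pairs, so smaller ratios in other cells say nothing about the number of Sox9 UMIs. Muc4 had 86 UMIs against 220 in Sox9con (-1.35) and 310 against 401 in Sox9cKO (-0.38), and Ankrd1 had 720 against 615 (0.22) and 2078 against 1583 (0.39). Eda was higher in the main pairs and lower in the Sox9con pairs with 1 Sox9 UMI (38 against 72 UMIs, -0.92). Gsto1 was lower in the main pairs and higher in the Sox9cKO pairs with 1 Sox9 UMI (258 against 206 UMIs, 0.32, 0.05 to 0.59).

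Shallower cells, with 2000 to under 4000 UMIs, gave most named genes the same direction, except the lower genes in Sox9cKO. Over 128 pairs of Sox9con, the 12 higher genes had a median of 0.49, with 9 of 12 above 0, and the 12 lower genes -2.01, with 9 of 12 below 0. An interval off 0 in that direction was found for 4 of the higher and 9 of the lower genes. Among all 4402 tested genes, 47.4% were above 0 and 52.6% below 0 in these pairs. An interval above 0 was found for 336 of them, and intervals below 0 were not counted. In those cells Tnip3 had 24 UMIs against 83, Ndnf 7 against 52 and Ankrd1 660 against 378. Hsph1 went the other way, with 68 against 32 (1.07, 0.46 to 1.74), and Flnc, Eda and Dis3 were just below or below 0, at -0.01, -0.01 and -0.50. Over 50 pairs of Sox9cKO the higher genes had a median of 0.55, with 10 of 12 above 0 and 2 with an interval off 0. Of all 4402 tested genes in these pairs, 46.5% were above 0, 53.5% were below 0 and 201 had an interval above 0. The lower genes had a median of 0.48 there, and 5 of 12 were below 0. These sums were small, 27 against 15 UMIs for Muc4 and 44 against 54 for Tnip3, and none of the 12 lower genes had an interval that left out 0 on the lower side. Ndnf left it out on the other side, with 21 against 8 UMIs (1.33, 0.15 to 2.77).

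Ratios did not follow the number of Sox9 UMIs in the same way in both libraries. In Sox9con the median of the higher genes was 0.86 in cells with exactly 2 Sox9 UMIs and 1.02 with 3 or more, and that of the lower genes -1.29 and -1.64. In Sox9cKO the medians were 0.79 and 0.66, and -1.21 and -0.67. Ankrd1 followed this order, with 0.80 and 2.33 in Sox9con and 0.77 and 0.64 in Sox9cKO. The cells with 2 and with 3 or more belong to the main comparison, on which the genes were chosen. Each class was paired with its own draw of Sox9-zero cells, and the difference between classes was not tested.

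**Figure D4:**
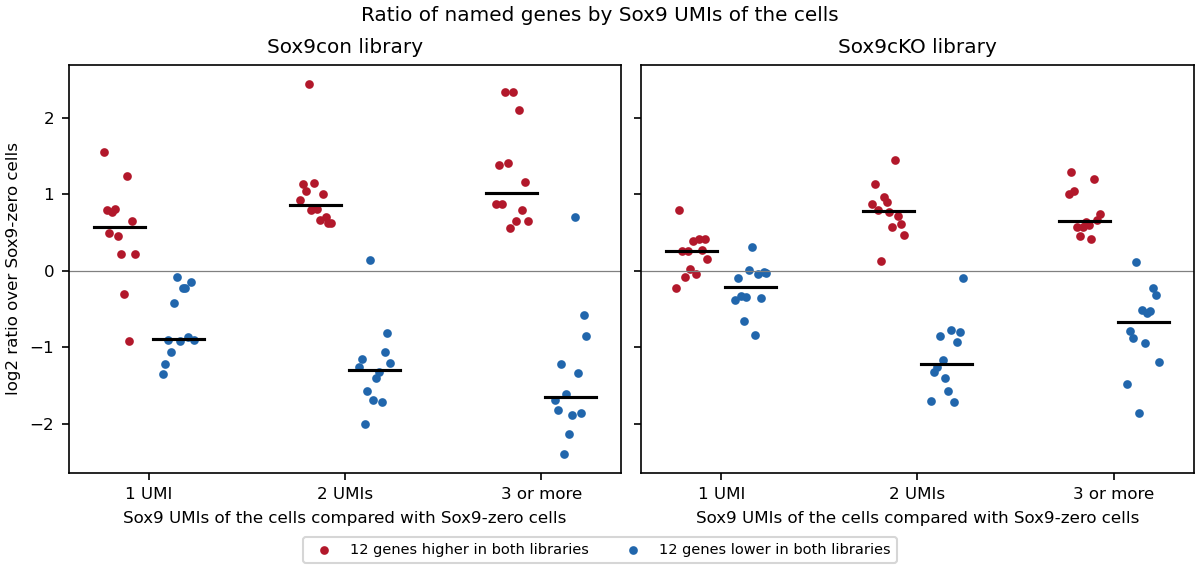
Points are log2 ratios over Sox9-zero cells of the 12 higher (red) and 12 lower (blue) genes, for cells with 1, exactly 2, and 3 or more Sox9 UMIs in Sox9con (left) and Sox9cKO (right), with black lines for medians. The 1-UMI cells were not used to choose the genes, unlike the other classes, and have medians of 0.57 and -0.89 in Sox9con and 0.26 and -0.21 in Sox9cKO.

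Among duct markers, Spp1 was higher in Sox9-detected cells of both libraries without reaching 1.5-fold. It had 4669 UMIs in Sox9-detected and 3476 in Sox9-zero cells of Sox9con, or 3602 and 2716 CPM, a log2 ratio of 0.41 (0.34 to 0.47). In Sox9cKO it had 4892 and 3766 UMIs, or 2329 and 1796 CPM, a ratio of 0.38 (0.31 to 0.44). Krt19, a keratin of duct epithelium, was on the other side, with 1358 and 1750 UMIs (-0.38) and 1619 and 2156 (-0.42). Krt7, another duct keratin, had 230 and 349 UMIs in Sox9con (-0.62) and 435 and 466 in Sox9cKO (-0.10, -0.29 to 0.09). Spp1 was above 0 in 7 of the 8 wells with at least 20 pairs, Krt19 below 0 in all 8.

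EGFP, a sequence added to the gene table, had 1 UMI against 0 in Sox9con and 2 against 1 in Sox9cKO, so no ratio is given. Inhba, the activin A subunit gene, had 111 UMIs against 74 in Sox9con (0.56) and 798 against 748 in Sox9cKO (0.09). In wells with at least 20 pairs its ratios ran from -2.68 to 2.65 in Sox9con and from -1.12 to 1.54 in Sox9cKO. With exactly 2 and with 3 or more Sox9 UMIs they were -0.53 and 2.65 in Sox9con and 1.17 and -0.79 in Sox9cKO. Across wells and Sox9 classes the sign changed in both libraries, so neither ratio has a steady direction. A single Sox9-detected Sox9cKO cell held 104 of the 798 UMIs, and a Sox9-zero cell held 78 of the 748. Without the highest cell of each arm the ratios were 0.65 in Sox9con and 0.05 in Sox9cKO.

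Related transcription factors and pathway lists showed smaller shifts. Of 14 other SOX factors, 3 were tested and all had ratios above 0 in both libraries, beside 31.1% of all tested genes. Sox5 had 962 and 723 UMIs in Sox9con (0.39) and 1485 and 1169 in Sox9cKO (0.34), Sox6 had 0.31 and 0.60, and Sox4 had 0.27 and 0.10. Sox5 and Sox6 are also the SOX9 partners of cartilage. The cartilage list had 3 of 17 genes tested, those 2 and Wwp2 (0.08 and -0.10), and its collagen genes fell under the minimum. Of 8 listed neighbours of Sox9 in the genome, 3 were tested. The noncoding transcript 2610035D17Rik had -0.40 and -0.20, Fam104a 0.27 and 0.21, and Slc39a11 -0.37 and 0.05.

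Of 16 genes of the YAP and TEAD list, 10 were tested, with medians of 0.12 in Sox9con and -0.01 in Sox9cKO. Past 1.5-fold in both libraries was Ankrd1 alone of these. Ccn1, a secreted matrix protein and TEAD target, had 0.46 and 0.50, and the factors Tead1 and Yap1 had 0.24 and 0.28, and 0.20 and 0.12. F3 (tissue factor) and Crim1 were below 0 in both, at -0.23 and -0.19, and -0.03 and -0.22. In both libraries 4 of the 10 were above 0 and 4 below, near the 31.1% and 28.8% of all tested genes. Among the 15 genes higher in both libraries, 11 had a promoter entry and 5 of those (45.5%) held GGAATG, namely Ankrd1, Dis3, Eda, Flnc and Tenm3. The letters were in 3 of 18 promoters of the lower genes (16.7%) and in 11.2% of the 3512 promoters of tested genes. ACAATG or ACAAAG was in 0 of 11, 4 of 18 (22.2%) and 18.3%. GGAATG was searched after the Ankrd1 sequence had been seen.

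Bile secretion genes leaned lower, with 7 of 16 tested and medians of -0.12 and -0.33. Slc12a2, a chloride importer, had -0.40 and -0.72, the calcium-gated chloride channel gene Ano1 -0.49 and -0.37, and the carbonic anhydrase gene Car2 -0.43 and -0.28. Cftr, the chloride channel of duct epithelium, had 491 and 352 UMIs in Sox9con (0.46) and 397 and 536 in Sox9cKO (-0.43), opposite signs in the libraries. Of the basement membrane and integrin genes, 17 of 22 were tested and 10 (58.8%) were below 0 in both, beside 28.8% of all tested genes. Their medians were -0.16 and -0.06. The laminin genes Lama3 (-0.42 and -1.03) and Lamb3 (-0.80 and -0.50) and the integrin genes Itga2 (-0.48 and -0.32) and Itgb6 (-0.91 and -0.24) were the lowest. No gene of either list passed 1.5-fold in both libraries.

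The gland and mucosal list had the lowest medians among lists with at least 4 genes tested, with 6 of 21 tested and medians of -0.34 and -0.59. Of these 6, 5 were below 0 in both libraries, beside 28.8% of all tested genes, and Muc4 and Msln passed 1.5-fold in both, beside 0.613%. Car4, a carbonic anhydrase, had -0.50 and -1.01, Pigr, the receptor that carries antibodies across epithelia, -0.16 and -0.53, and Muc1 0.06 and -0.50. Muc4 itself is a member, so the list is not independent of the named genes.

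Plasma protein transcripts summed higher in Sox9-detected cells. The 23 genes of the list summed to 1700 CPM in Sox9-detected and 1155 in Sox9-zero cells of Sox9con and to 3097 and 2172 in Sox9cKO, and 4 were tested. Of the 23, 6 were at 0 in both arms of Sox9con, such as Apoa2 and Fgb, and 2 in both arms of Sox9cKO, Apoa2 and Mup20. Apoe had 1314 and 778 UMIs (0.74) and 1347 and 947 (0.51), and Alb had 0.57 and 0.06. Alb is a marker of hepatocytes, and the part of hepatocyte RNA in the Apoc1 and Apoe ratios was not tested.

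Immediate early and dissociation genes had medians of opposite sign in the libraries, -0.11 and 0.19, with 19 of 21 tested. Of the 19, 9 (47.4%) were split between the libraries, near the 40.1% of all tested genes. Above 0 in both were 6 and below 0 in both 4. The summed UMIs of the list had log2 ratios of -0.07 (-0.11 to -0.03) in Sox9con and 0.15 (0.12 to 0.19) in Sox9cKO, and the difference was not tested. Myc was above 0 in both (0.55 and 0.54), and Hspa1a was the only member past 1.5-fold in both. Inflammatory mediators, 15 of 21 tested, had medians of 0.10 and -0.03. The chemokine genes split, with Cxcl1 (0.40 and 0.30) and Cxcl10 (0.41 and 0.76) above 0 and Cxcl5 (-0.62 and -0.43) below. In the TGF-beta and activin list, 11 of 26 were tested, with medians of 0.12 and 0.02. Id2, an inhibitor of helix-loop-helix factors, had 0.86 and 0.52, and the ligand gene Tgfb2 0.76 and 0.19.

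The remaining lists were near the values of all genes or rested on few genes. Notch genes (7 of 17 tested) had medians of -0.13 and -0.00, cilium genes (7 of 20) 0.13 and 0.15, and Wnt genes (6 of 19) -0.19 and 0.03. Pkhd1, the gene of recessive polycystic disease, had 0.39 and 0.16. The mesenchymal transition list (4 of 14 tested) had 0.32 and 0.25, with the integrin gene Itga5 at 0.91 and 0.38. Of mesenchymal cell markers, 2 of 11 were tested, and Rgs5 had 0.94 and 0.56. The mesenchymal markers summed to 336 and 312 CPM in Sox9con and 366 and 313 in Sox9cKO. The immune markers summed to 58.6 and 62.5 CPM in Sox9con and to 164 and 94.9 in Sox9cKO, with 1 of 10 tested, and 6 and 5 of the 10 were at 0 in both arms, among them Lyz2, Adgre1, Clec4f, C1qa and Cd3e in each library. Their part in the named ratios was not tested. Of the proliferation genes, 3 of 20 were tested, with medians of 0.18 and -0.34.

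**Figure D5:**
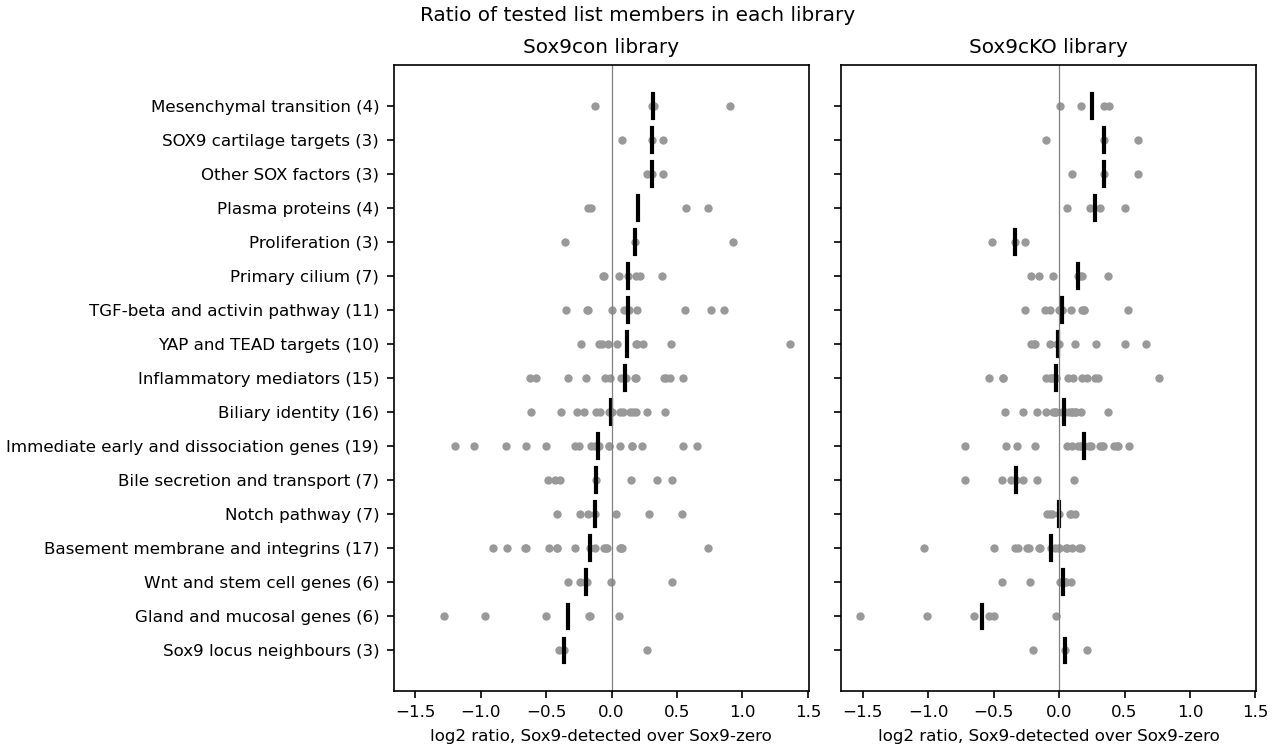
Each point is 1 tested gene of a list, with its log2 ratio of Sox9-detected over Sox9-zero cells in Sox9con (left panel) and Sox9cKO (right panel), and black lines are list medians. Gland and mucosal genes have medians of -0.34 and -0.59, and the 3 other SOX factors lie above 0 in both panels.

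The shared lists depended on which cells were drawn and on how cells were matched. Another draw of the same number of cells gave 10 genes higher and 17 lower in both libraries, of which 6 and 15 were among the 15 and 27. The 12 higher and 12 lower named genes kept their direction in both libraries under that draw. Its Sox9-detected cells came from the same 240 and 345 cells, most of which had served to choose the genes. The kept direction is therefore no further support. Matching on expression cluster as well gave 4 genes higher and 1 lower in both, of which 1 and 1 were among the 15 and 27, and r was 0.06. Under it the medians of the 12 higher named genes were 0.41 in Sox9con and 0.31 in Sox9cKO, beside 0.88 and 0.70 without it, and those of the 12 lower genes -0.36 and -0.28, beside -1.21 and -1.08. The clusters were made without Sox9 but with these genes, so this also takes away differences between kinds of biliary cell. Without well D9 3 genes were higher and 12 lower in both, of 1966 tested.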

How the data were processed

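The deposited matrices hold UMI counts, as whole numbers for each cell and gene, per the file headers, with cell tables that name barcoding wells. The genome is GRCm39 per the submitters' processing notes, and the aligner and the barcode filter are not given in the sources used here. The libraries hold 12811243 (Sox9con, 3622 cells) and 14856321 (Sox9cKO, 2740 cells) UMIs. The members, gene lists and thresholds were chosen with earlier results of these data known.

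Everything else was computed here with Python 3.11.15, numpy 2.4.6 and scipy 1.17.1. Of the cells, 2494 and 902 fell below 4000 UMIs, 16 and 5 exceeded 15% mitochondrial UMIs, and 17 and 28 of those left had 5 or more endothelial UMIs. Scrublet, run through scanpy 1.11.5 within each library, marked 12 of 1095 (1.10%) and 10 of 1805 (0.554%) kept cells, which were not removed. In each stratum of well and 1000-UMI depth bin, the smaller arm's number of cells was drawn from both arms (seed 1). Counts were summed per arm, and a log2 ratio of CPM with a prior of 0.5 counts and an exact conditional binomial interval was computed per gene. A gene was called at 1.5-fold, a log2 ratio of 0.58. Named genes are the 12 highest and 12 lowest by the smaller absolute ratio, with the same sign and an interval off 0 in both libraries. Also named are EGFP, Spp1, Krt7, Krt19, Epcam, Inhba, the 5 largest library differences in each direction and, of each list, its extremes and up to 4 more. Some genes that this rule names are not reported here. The comparisons of cells outside the pairs or without the highest cells, well D9 alone and the thinned Sox9cKO sums were added after the data were seen. edgeR 4.0.16 and DESeq2 1.42.0 gave scaling factors only. Leiden clusters (leidenalg 0.10.2), 8 in Sox9con and 12 in Sox9cKO, served as an alternative matching. The ratio and interval code was tested on simulated data. Promoters came from RefSeq on GRCm38.p6, not the build of the counts, and served for names and letters only.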

Additional observations from a re-analysis of the deposited data

Results flagged for a closer look

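Genes past 1.5-fold in opposite directions in the libraries numbered 5, and the difference between the libraries was not tested for any of them. For Dclk1, a kinase gene of tuft cells, the log2 ratio was 2.81 higher in Sox9cKO than in Sox9con (-1.05 in Sox9con from 52 against 107 UMIs, 1.76 in Sox9cKO from 350 against 103). A single Sox9-detected Sox9cKO cell held 217 of the 350 UMIs, and without the highest cell of each arm the ratios were -0.86 and 0.64. For Ugdh, an enzyme of glucuronate synthesis, the difference was 1.68 (34 against 67 UMIs and 99 against 61). Stox2 differed by 1.23 (97 against 144 and 132 against 84). Sergef differed by -1.44 (63 against 40 and 64 against 112), and Pdk4, a kinase that inhibits pyruvate dehydrogenase, by -1.36 (74 against 44 and 80 against 124). Without the highest cells, the ratios of Pdk4 were 0.73 and -0.70 and those of Stox2 -0.52 and 0.52.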

How the results depend on the processing

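The 15 genes higher and 27 lower in both libraries became 17 lower with another draw and 1 higher with a threshold of 1 Sox9 UMI. Without matching 55 were lower, and with finer depth bins 8 were higher. Matched on cluster, 4 were higher and 1 lower. Thinned to 4000 UMIs per cell, 9 were higher and 6 lower. A minimum of 50 UMIs gave 33 and 52, of 200 UMIs 6 and 12, and no minimum 1068 and 904. At 2-fold 0 were higher and 6 lower. Well D9 alone gave 7 higher. Leaving out each well in turn gave 3 to 21 higher and 12 to 37 lower, with 3 and 12 without D9 and 16 lower without B1. In the other alternatives the counts of genes stayed within 1.5 times. Among them were weighting in place of drawing (13 and 26) and TMM and DESeq2 scaling (14 and 28 each). The genes counted were not always the same. Of the main 15 higher and 27 lower genes, TMM and DESeq2 scaling kept 14 and 27 each, but weighting kept 9 and 15. A threshold of 3 or more Sox9 UMIs kept 6 and 8, and cells with under 2 endothelial UMIs kept 6 and 15. The direction of a ratio turned as follows. Matched on cluster, it was -0.038 for Apoc1, -0.25 for Rnd1, 0.18 for Gsto1 and 1.27 for Dclk1 in Sox9con, and 0.41 for Adgrg7 and 0.031 for Duox2 in Sox9cKO. Thinned to 4000 UMIs, it was 0.044 for Muc4, 0.080 for Ndnf, 0.45 for Duox2, 0.036 for Nupr1 and -1.60 for Dclk1, all in Sox9cKO. With 3 or more Sox9 UMIs, it was 0.11 for Ikzf2 and -0.064 for Dclk1 in Sox9cKO, and 0.71 for Hsph1 and -0.21 for Sergef in Sox9con. Sergef was at -0.28 with at most 10% mitochondrial UMIs and Dclk1 at 0.92 in well D9 alone, both in Sox9con. Leaving out each Sox9con well in turn, Hsph1 ran from -1.03 to 1.37 and Sergef from -0.43 to 0.81, with the turned values those without D9. Dclk1 is the only tested tuft gene, so the median of that list turned with it. The causes were not tested. Of the other settings, 1317 single-gene ratios stayed within the counting interval and 345 moved beyond it. No paired analysis was possible because each genotype is 1 library. Depth limits the calls, since 0 Sox9 UMIs do not show absence.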

Other observations

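Of the 4402 tested genes, 199 met a wider rule on differences between libraries. They were at least 1.5-fold higher or lower in Sox9-detected cells of 1 library or both. Their counting interval of the difference between libraries also left out 0. Such intervals are narrower than the true uncertainty, so the 199 are not genes shown to differ between libraries. Nr4a1, an immediate early nuclear receptor gene, had 133 UMIs in Sox9-detected and 302 in Sox9-zero cells of Sox9con (log2 ratio -1.20) and 263 and 192 of Sox9cKO (0.45). Kcnh7, a potassium channel gene, had -1.11 and 0.31. Higher in Sox9-detected cells of Sox9con were Kcnip4, a potassium channel partner, with 355 and 124 UMIs (1.5) against 539 and 441 in Sox9cKO (0.29), Limch1 (0.80 and -0.43) and Nlrp5-ps (0.89 and -0.34).

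Genes below the minimum for testing also differed between arms, some through very few cells. The gastric mucin gene Muc6 had 1 UMI in Sox9-detected and 367 in Sox9-zero cells of Sox9con, 305 of them in 1 cell. Fyb, an adaptor gene of blood cells, had 96 against 2 UMIs in Sox9cKO, 53 of them in 1 cell. The tuft cell gene Sh2d6 had 0 against 25 UMIs in Sox9con and 23 against 2 in Sox9cKO. Mki67, a proliferation gene found in 8 to 23 cells of each arm, had 57 against 12 UMIs in Sox9con and 45 against 59 in Sox9cKO. The cartilage list's Chst11 had 17 against 122 UMIs in Sox9cKO, from 9 and 26 cells.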
